A study of Homo sapiens with 4 samples.

Results

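The MAPK feedback genes described here are 10 genes whose products switch off MAP kinase signalling or report its output. They are the dual-specificity phosphatase genes DUSP2, DUSP4, DUSP5, DUSP6 and DUSP10, the Sprouty genes SPRY1 and SPRY2, the Sprouty-related genes SPRED1 and SPRED2, and the ETS factor gene ETV5. They were chosen by name, with every probe set annotated to the symbol alone, which gave 27 probe sets for 10 of the 18239 genes in the table.

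RNA was measured on 4 arrays from cultures of REC-1 and Z138, human mantle cell lymphoma lines, each profiled once after 48 h with CC-292 and once as an untreated control. The groups were thus CC-292-treated REC-1, control REC-1, CC-292-treated Z138 and control Z138, with 1 array in each of the 4 groups and no replicates. CC-292 inhibits Bruton tyrosine kinase (BTK), which relays the B-cell receptor signal. The dose is 1 uM in the treatment protocol but 1 mM in the titles of the treated arrays, and no time is stated in the title of the Z138 control array. No label names a transgene, a vehicle or the origin of the cultures.

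In B cells, antigen receptor signalling reaches Ras, the RAF kinases, MEK and then ERK. Active ERK induces its own brakes: dual-specificity phosphatases remove the phosphates that activate MAP kinases, while Sprouty and SPRED proteins act upstream, between receptors, Ras and RAF. Transcripts of DUSP4, DUSP6, SPRY2 and ETV5 are commonly read as a gauge of ERK output.

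Signals are log2 values, so a difference of 1 is a 2-fold difference. A gene was represented by its brightest probe set, and was kept if that reached 4.63, the median of all values in the table, on at least 1 array. This brightness minimum kept 10823 genes and 7 of the 10 members. DUSP4, DUSP6 and ETV5 lay below it on every array. The 23 probe sets made to measure nonspecific background had medians of 3.06 to 3.12, and all but the brightest of them lay at or below 4.49. The 10th highest read 3.25 to 3.29, so most lay well below 4. Because the second highest reached 4.37 to 4.49, a level near 4 is called in the range of background. In bulk RNA, fewer cells that express a gene and less RNA per cell cannot be told apart. Because 1 array stands for each group, the error between cultures within a group is unknown. The spread between probe sets of 1 gene, given as an SD, holds none of that error. Over all genes with several kept probe sets, the pooled SD was 0.31 for the CC-292 difference in REC-1, 0.25 in Z138, 0.46 between the lines on CC-292 arrays and 0.48 on control arrays. Levels of different genes are not compared, since each probe set has its own response.

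Median signals were 4.63 to 4.64 on all 4 arrays. The 5 B-cell marker genes used here reached the brightness minimum on every array. At most 3 of 11 T and NK cell markers, 1 of 7 myeloid and erythroid markers, and 4 of 8 stromal and epithelial markers reached it on any array. The 3' minus 5' signal of ACTB, which rises as RNA degrades, stood at 0.53 and 0.77 on the CC-292 and control arrays of REC-1, and 1.11 and 1.12 on those of Z138. It therefore moves with the line difference below, and its part in that difference was not tested. The same measure of GAPDH was -0.31 and -0.32 in REC-1 and -0.24 and -0.28 in Z138.

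The first comparison asked how the brakes differed between the lines. DUSP5 was the phosphatase gene that set REC-1 apart, while SPRY1, SPRED2 and SPRY2, which act on Ras and its upstream signal, were higher in Z138. DUSP2 and DUSP10 were higher in REC-1 by less than 2-fold. SPRED1 differed little on its brightest probe set. DUSP4, DUSP6 and ETV5 gave no signal above the brightness minimum in either line.

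Averaged over both treatments, 6 of the 7 members that were tested passed limma's test at an adjusted p under 0.05, with 3 higher in REC-1 (DUSP2, DUSP5 and DUSP10) and 3 lower (SPRY1, SPRY2 and SPRED2). Of all 10823 genes tested, 44.7% passed, 21.7% higher and 23.1% lower, so differences between these lines were common and the members' count is read against that. DUSP5 was kept only through its REC-1 arrays and SPRED2 only through its Z138 arrays, so both had to differ between the lines and their p-values are no support for it. The test rests on 2 cultures per line, 1 of each treatment. Its residual is the difference in CC-292 response, with 1 degree of freedom before moderation. The labels do not say whether cultures were grown separately, so these p-values measure only the spread between these samples. On the CC-292 arrays alone, which allow no test, 3 of the 7 kept members (DUSP5, SPRY1 and SPRED2) were at least 2-fold different, against 25.3% of kept genes. On the control arrays 4 were (SPRY2 in addition), against 24.3%. With values below the brightness minimum set to it, 2 remained on CC-292 arrays (without SPRED2) and 3 on control arrays (without SPRY2). SPRED2 also drops out on control arrays when its probe sets are averaged or their median difference is taken, which leaves 3. The median over all 10 members was -0.19 on CC-292 arrays and -0.13 on control arrays. Over the 7 kept members it was -0.09 and 0.18, beside -0.03 and 0.02 over kept genes. The sign on control arrays thus turns with the 3 dim members, and no direction is read from it. Control arrays enter both the line and the CC-292 differences, so these comparisons are not independent of each other.

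**Figure D1:**
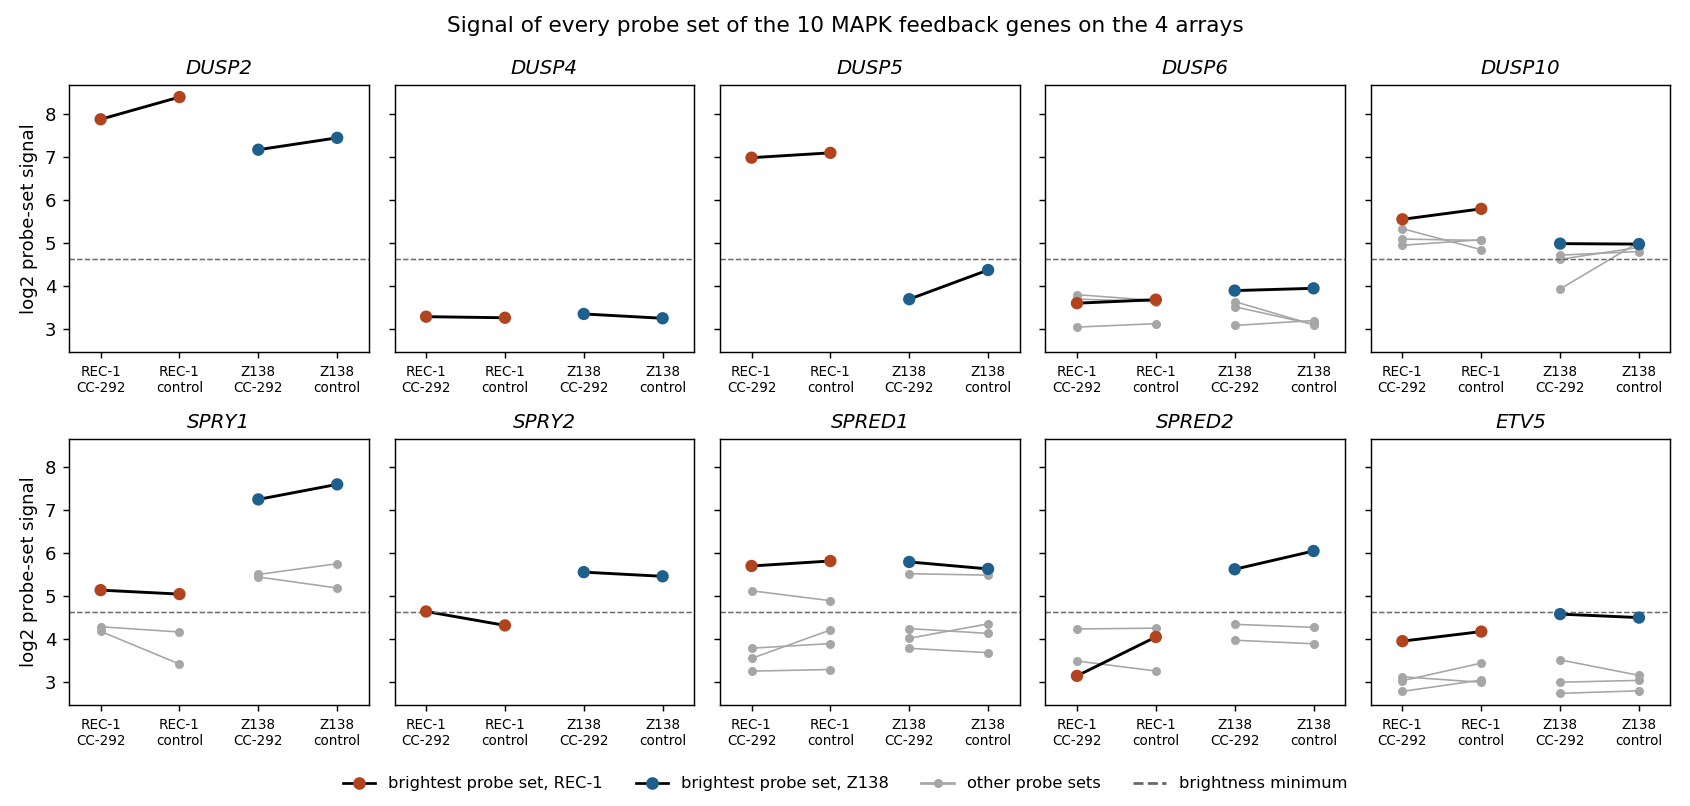
Log2 signal of every probe set of the 10 genes on the CC-292 and control arrays of REC-1 and Z138, 1 panel per gene, with 1 array per group and no error bars. Lines join the arrays of 1 line, coloured points mark the brightest probe set, grey points the others, and the dashed line the brightness minimum of 4.63. DUSP5 is near 7 in REC-1 and below the minimum in Z138, SPRY1 and SPRED2 are higher in Z138, and DUSP4, DUSP6 and ETV5 stay below the minimum.

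DUSP5 encodes a nuclear phosphatase selective for ERK. Its single probe set read 6.97 and 7.09 on the CC-292 and control arrays of REC-1, against 3.69 and 4.36 on those of Z138. Both REC-1 arrays were high and both Z138 arrays lay within the range of background, with no overlap. Lines did not overlap for 76.8% of kept genes. The average difference was 3.01 (SE 0.20), with a limma adjusted p of 0.000276, against values in the range of background. REC-1 was 9.77-fold higher on CC-292 arrays and 6.60-fold higher on control arrays. With Z138 set to the brightness minimum, REC-1 was at least 5.07-fold higher on CC-292 arrays and at least 5.48-fold higher on control arrays.

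DUSP2, which encodes a nuclear phosphatase of blood cells that acts on ERK and p38, also has 1 probe set, whose suffix (s) marks probes that can match more than 1 gene. It read 7.87 and 8.38 on the CC-292 and control arrays of REC-1, against 7.16 and 7.44 in Z138. All 4 arrays were well above the minimum, and both REC-1 arrays were above both Z138 arrays. For 76.8% of kept genes the lines likewise did not overlap. The average difference was 0.83 (SE 0.16, limma adjusted p = 0.0107).

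DUSP10 encodes a phosphatase that prefers p38 and JNK over ERK. Its brightest probe set read 5.54 and 5.79 on the CC-292 and control arrays of REC-1, against 4.98 and 4.97 in Z138, an average difference of 0.69 (SE 0.16, limma adjusted p = 0.0200). All 4 probe sets were higher in REC-1 with both treatments, without overlap of the lines. Absence of overlap was common, at 76.8% of kept genes on the brightest probe set. The size depended on the probe set: the control difference was 0.82 on the brightest and 0.04, 0.18 and 0.04 on the others, and the CC-292 difference between lines ran from 0.33 to 1.16.

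SPRY1 encodes a Sprouty protein that restrains Ras and ERK activation by growth factor receptors. Its brightest probe set read 5.14 and 5.05 on the CC-292 and control arrays of REC-1, against 7.25 and 7.60 in Z138. Z138 was high on both arrays, and the lines did not overlap on any of the 3 probe sets, beside 76.8% of kept genes without overlap. The average difference, REC-1 minus Z138, was -2.33 (SE 0.18, limma adjusted p = 0.000491). The control difference was -2.55, -1.59 and -1.77 on the 3 probe sets, with a mean of -1.97 (SD 0.51, over probe sets). The CC-292 arrays gave -2.11, -1.22 and -1.26. On the dimmer probe sets REC-1 lay below the minimum on both arrays, so their sizes are less certain.

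SPRY2, the other Sprouty gene, was measured by 1 probe set. It read 4.65 and 4.32 on the CC-292 and control arrays of REC-1, against 5.56 and 5.46 in Z138. Both Z138 arrays were higher, while REC-1 stood at the brightness minimum or just under it. The average difference was -1.03 (SE 0.16, limma adjusted p = 0.00501). The difference was -0.91 on the CC-292 arrays and -1.14 on the control arrays. With REC-1 set to the minimum, Z138 was at least 1.78-fold higher on control arrays, so the 2-fold call ends there.

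SPRED2 encodes a membrane adaptor that restrains Ras signalling to RAF. On its brightest probe set it read 3.15 and 4.05 on the CC-292 and control arrays of REC-1, against 5.63 and 6.05 in Z138. Z138 was well above the minimum and REC-1 in the range of background on both arrays. The average difference was -2.24 (SE 0.19, limma adjusted p = 0.000611), with the same limit as for DUSP5. With REC-1 set to the minimum, Z138 was at least 1.99-fold higher on CC-292 arrays and at least 2.67-fold higher on control arrays. The other probe sets, below the minimum everywhere, had control differences of -0.02 and -0.63. No direction is read from those levels, so the direction and the size both rest on the brightest probe set.

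SPRED1 encodes the adaptor that brings neurofibromin, a Ras GTPase-activating protein, to the membrane. Its brightest probe set was level, at 5.70 and 5.82 on the CC-292 and control arrays of REC-1 and 5.80 and 5.63 in Z138. The lines overlapped, and the average difference was 0.05 (SE 0.17, limma adjusted p = 0.846). Its second probe set was lower in REC-1, at 5.13 and 4.90 on the CC-292 and control arrays, against 5.52 and 5.49 in Z138. The mean over all 5 probe sets had the opposite sign to the brightest, at -0.31 on average (limma adjusted p = 0.104).

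The dim members, DUSP4, DUSP6 and ETV5, had 9 probe sets among them. DUSP4, the gene of a nuclear phosphatase of ERK and JNK, ranged from 3.24 to 3.34 over the 4 arrays. DUSP6, the gene of a cytoplasmic phosphatase selective for ERK, had 4 probe sets between 3.04 and 3.94. ETV5, which encodes an ETS transcription factor of the PEA3 group that acts downstream of ERK, had 4 probe sets between 2.74 and 4.59. These are levels at which transcript and background cannot be told apart here. No difference is read from them, and the values do not show that the transcripts were absent.

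**Figure D2:**
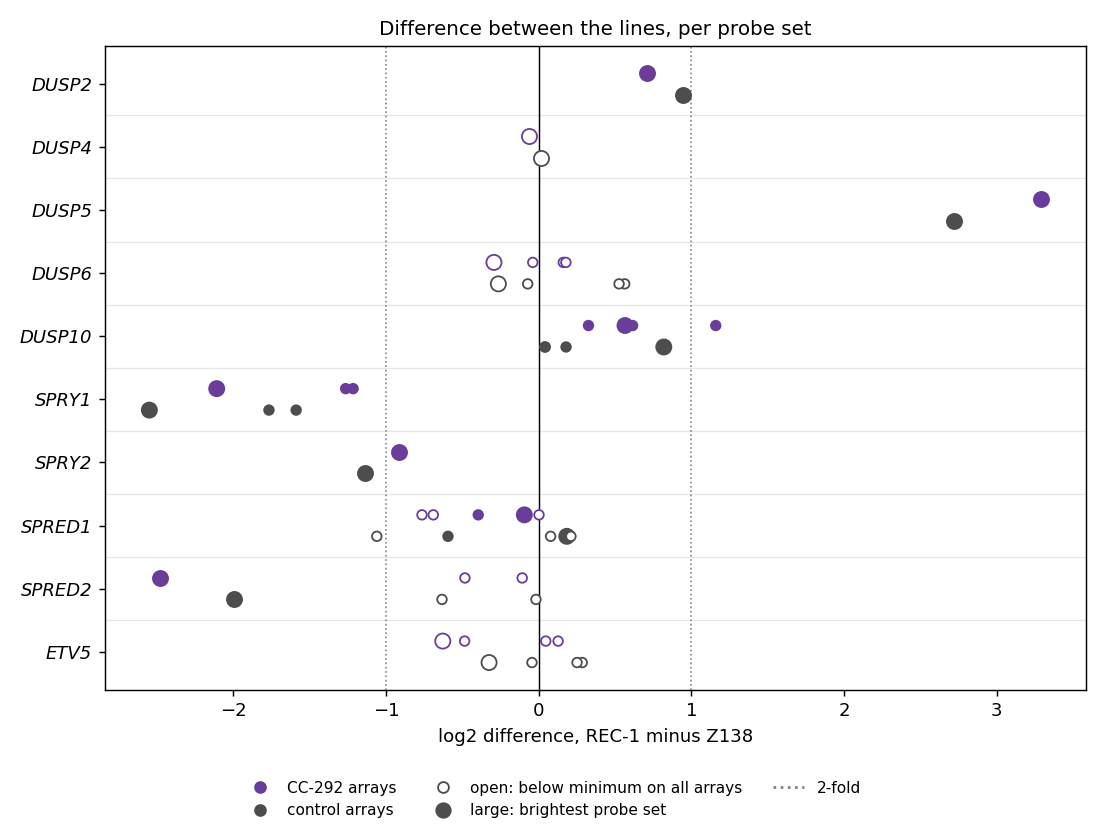
Log2 difference between the lines, REC-1 minus Z138, for every probe set of each gene (rows), on CC-292 arrays (purple) and control arrays (grey). Large points are the brightest probe set, open points lie below the brightness minimum on all 4 arrays, and dotted lines mark 2-fold. DUSP5 lies at 3.29 and 2.72, all SPRY1 probe sets lie below -1, and the open points of SPRED2 lie much nearer 0 than its brightest probe set.

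Promoter sequence from RefSeq (GRCh38.p14) was read for 7 of the 10 members. Any windows on the chromosome of DUSP4 were left out, so nothing is said of that gene here. The 250 bases before the first listed start are shown for the 3 genes that were higher together in Z138, and for DUSP2, which was higher in REC-1. They are given 5' to 3' on the strand of the gene, in lower case, with capitals for 1 motif: the ETS core CCGGAA, in either orientation.
SPRY1, chr4:123396545-123396794, plus strand: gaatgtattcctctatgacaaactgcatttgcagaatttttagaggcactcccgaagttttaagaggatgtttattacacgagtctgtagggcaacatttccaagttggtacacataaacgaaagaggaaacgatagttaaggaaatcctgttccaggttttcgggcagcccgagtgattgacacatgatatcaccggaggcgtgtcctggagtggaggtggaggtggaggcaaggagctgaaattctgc
SPRY2, chr13:80341127-80341376, minus strand: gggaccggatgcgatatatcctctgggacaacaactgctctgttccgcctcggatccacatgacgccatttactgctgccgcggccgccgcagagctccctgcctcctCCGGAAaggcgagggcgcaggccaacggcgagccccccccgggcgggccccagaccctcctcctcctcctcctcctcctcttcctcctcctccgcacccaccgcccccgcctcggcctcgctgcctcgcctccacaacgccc
SPRED2, chr2:65432600-65432849, minus strand: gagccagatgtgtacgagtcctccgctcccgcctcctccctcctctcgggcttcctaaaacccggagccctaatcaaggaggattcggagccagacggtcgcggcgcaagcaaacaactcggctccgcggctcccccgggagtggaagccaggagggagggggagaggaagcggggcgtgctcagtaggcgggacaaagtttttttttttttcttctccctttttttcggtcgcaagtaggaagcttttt
DUSP2, chr2:96145441-96145690, minus strand: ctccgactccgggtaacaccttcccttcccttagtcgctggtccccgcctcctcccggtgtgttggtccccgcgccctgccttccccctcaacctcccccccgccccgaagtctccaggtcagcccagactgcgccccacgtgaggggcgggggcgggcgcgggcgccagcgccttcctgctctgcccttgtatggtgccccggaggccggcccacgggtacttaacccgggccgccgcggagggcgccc
The ETS core is the site of factors such as ETV5 and ETV1. It was found once in the SPRY2 window, 142 bases before the start, and in none of the other 3 windows. Of 35116 RefSeq windows of the same length, 14.5% held it. A further SPRY1 start listed downstream had 1 match, 67 bases before it. Neither the AP-1 motif TGANTCA (6.57% of windows) nor the CRE motif TGACGTCA (1.65% of windows) was found in any of the 12 member windows that were read, on either strand. The motifs do not overlap in these windows. A match is a description of letters, not of binding.

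The second comparison asked what differed after CC-292, the inhibitor of BTK, within each line. Few of the brakes were past 1.5-fold. SPRED2 was lower in treated REC-1 and DUSP5 lower in treated Z138, each in the line where that gene sat within background, so the sizes carry little meaning. DUSP2, SPRY1, SPRED1 and DUSP10 were above the minimum on all 4 arrays. Among them DUSP2 was lower in both lines, by less than 1.5-fold. The brightest probe sets of SPRY1 and SPRED1 ran opposite ways in the lines, also by less than 1.5-fold. That of DUSP10 differed by -0.24 in REC-1 and was level in Z138, at 0.01. With 1 array per group, none of these single-line differences has a test.

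Among the 7 kept members, 1 was at least 1.5-fold lower after CC-292 in REC-1 and none was that much higher, where 4.73% of kept genes were lower and 4.32% higher. In Z138 the count was again 1 lower and none higher, where 2.52% were lower and 2.18% higher. With values below the minimum set to it, no member was past 1.5-fold in either line. The median of the 10 members was -0.11 in REC-1 and -0.02 in Z138. Over the 7 kept members it was -0.12 and -0.28, beside -0.05 and 0.01 over kept genes. Over the 27 probe sets, 12 were above 0 and 15 below in REC-1, and 14 were above and 13 below in Z138. Past 1.5-fold were 1 higher and 2 lower in REC-1, and 0 higher and 2 lower in Z138. Only 13 of the 27 probe sets reached the minimum, and no share over all probe sets was computed. These probe-set counts are therefore not read as a result about the members.

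Averaged over both lines, the CC-292 difference passed limma's test for no member, and for 0 of 10823 genes (0.00%), at an adjusted p under 0.05. At an unadjusted p under 0.05 it passed for 4.36% of genes, and for 1 member, SPRED2. Here the lines stand in for repeats, so a response that differs between them counts as error.

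DUSP2 read 7.87 on the CC-292 array and 8.38 on the control array of REC-1, a difference of -0.52. In Z138 the values were 7.16 and 7.44, a difference of -0.28. Both treated arrays were lower than their controls, and the average was -0.40 (SE 0.16), with a limma adjusted p of 1.00 (unadjusted 0.0553).

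SPRED2 read 3.15 after CC-292 and 4.05 in the control of REC-1, a difference of -0.90 on its brightest probe set. Both values are below the brightness minimum. Of the 688 kept genes that were below the minimum on both REC-1 arrays, 6.98% were at least 1.5-fold lower. The other SPRED2 probe sets differed by -0.02 and 0.23, so the mean over 3 was -0.23 (SD 0.60). In Z138, where the brightest probe set was well above background, it read 5.63 after CC-292 and 6.05 in the control, a difference of -0.42, while the other probe sets differed by 0.07 and 0.08. The average over lines was -0.66 (SE 0.19, limma adjusted p = 1.00, unadjusted p = 0.0136).

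DUSP5 was level where it was bright, with 6.97 after CC-292 and 7.09 in the control of REC-1, a difference of -0.11. In Z138 it read 3.69 and 4.36, a difference of -0.68 between values in the range of background. Of the 779 kept genes below the minimum on both Z138 arrays, 5.91% were at least 1.5-fold lower.

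DUSP10 differed by -0.24 after CC-292 in REC-1 on its brightest probe set, and by 0.49, -0.13 and 0.03 on the others. In Z138 it differed by 0.01 on the brightest and by -0.08 and -0.28 on the next 2. The remaining probe set stood apart: it read 3.92 after CC-292 and 5.01 in the control of Z138, a difference of -1.09, but 5.08 and 5.05 in REC-1.

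For the Sprouty genes, the brightest SPRY1 probe set differed by 0.09 in REC-1 and by -0.35 in Z138. All 3 SPRY1 probe sets were above 0 in REC-1, up to 0.76 on one that stayed below the minimum there, and 2 of 3 were below 0 in Z138. SPRY2 differed by 0.32 in REC-1 and 0.10 in Z138. On the brightest probe sets these values were at most 0.35 in size, beside pooled SDs between probe sets of 0.31 in REC-1 and 0.25 in Z138. The 0.76 came from a probe set below the minimum on both REC-1 arrays. The pooled SD holds no error between cultures, so no response is read from the 0.76.

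SPRED1 differed by -0.12 in REC-1 and 0.16 in Z138 on its brightest probe set, and by 0.23 and 0.03 on its second. Among the dim genes, ETV5 differed by -0.22 in REC-1 and 0.08 in Z138, DUSP6 by -0.08 and -0.05, and DUSP4 by 0.02 and 0.10. None of these reached 1.5-fold, although a SPRED1 probe set below the minimum everywhere was at -0.66 in REC-1.

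**Figure D3:**
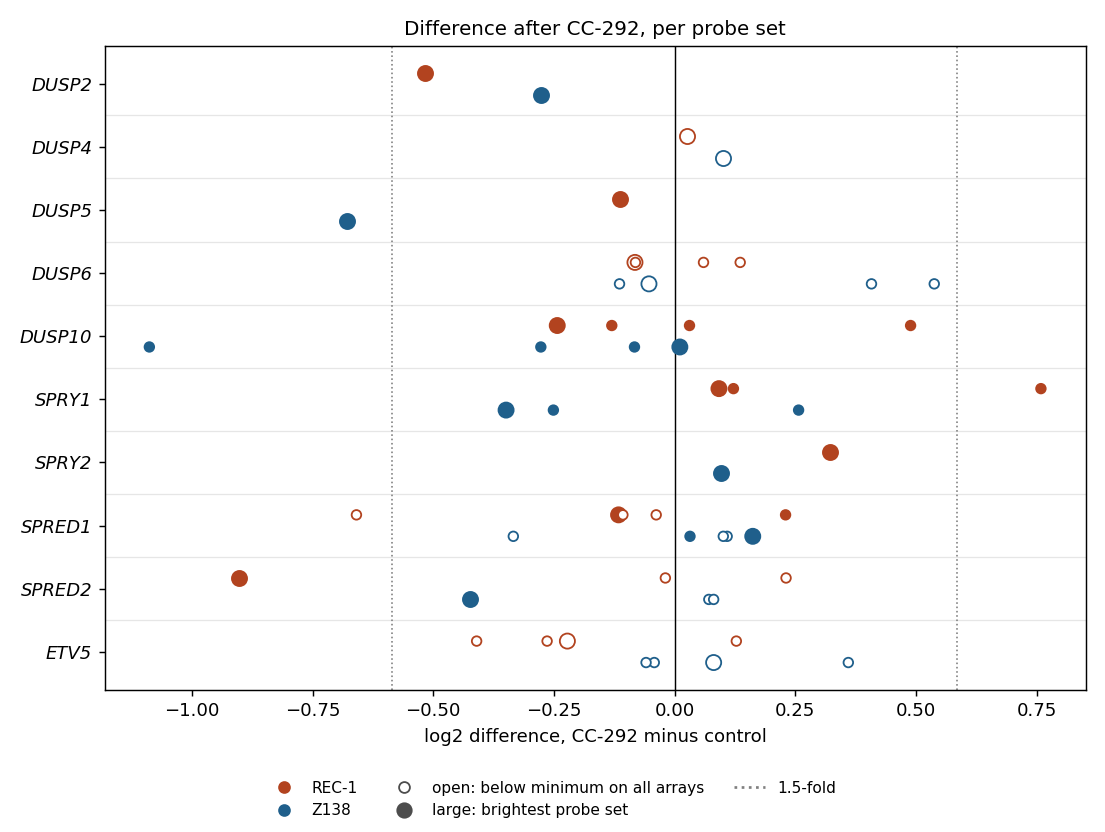
Log2 difference, CC-292 minus control, for every probe set of each gene (rows), in REC-1 (red) and Z138 (blue), with 1 array per group. Large points are the brightest probe set, open points lie below the brightness minimum on all 4 arrays, and dotted lines mark 1.5-fold. The brightest probe set is past 1.5-fold only for SPRED2 in REC-1 and DUSP5 in Z138, and probe sets of SPRED2, DUSP10 and SPRY1 scatter widely.

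Other genes of the pathway, from 5 lists, were read in the same way, and in none of them did a gene pass the test of the average CC-292 difference. Of ERK cascade components, 18 of 24 were kept. Averaged over treatments, 8 were higher in REC-1 and 2 lower at a limma adjusted p under 0.05, beside 44.7% of all genes tested. RASGRP3, the gene of a B-cell activator of Ras, read 3.39 and 3.24 on the CC-292 and control arrays of REC-1, against 8.84 and 8.86 in Z138. Both probe sets ran this way (control difference -5.62 on the brightest, mean -4.84), and the average was -5.53 (SE 0.16, limma adjusted p = 4.51e-05). REC-1 lay at background and the gene was kept only through Z138, so this p-value is no support for a difference. With REC-1 set to the minimum, Z138 was at least 18.4-fold higher on CC-292 arrays and at least 18.7-fold higher on control arrays. Its relative RASGRP1 went the other way, at 8.35 and 8.15 in REC-1 and 6.41 and 7.31 in Z138 (average 1.39, SE 0.28, limma adjusted p = 0.0117). MAPK3, which encodes an ERK, was higher in REC-1 by 1.20 on average (SE 0.17, limma adjusted p = 0.00329), as was the ERK-activated kinase gene RPS6KA1, by 1.79 (SE 0.16, limma adjusted p = 0.000699). After CC-292 in Z138, RASGRP1 was at -0.90 (below 0 on 5 of 5 probe sets) and RASGRP2 at -0.66.

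Of the Ras brakes outside the members, 11 of 16 were kept, with 4 higher in REC-1 and 2 lower, beside 44.7% of all genes tested. RASAL3, among those higher, was kept only through REC-1, so its p-value is no support for a difference. RASA3 and RASAL1, genes of Ras GTPase-activating proteins, were lower in REC-1, with average differences of -3.28 (SE 0.23) and -3.33 (SE 0.17) and limma adjusted p of 0.000343 and 0.000117. For RASA3 the brightest of 5 probe sets had a control difference of -3.68 and their mean was -1.04. RASAL1 was kept only through Z138, so its p-value is no support for a difference. It read 4.27 and 4.11 on the CC-292 and control arrays of REC-1. With REC-1 set to the minimum, Z138 was at least 7.13-fold higher on CC-292 arrays and at least 7.69-fold higher on control arrays. The mean control difference of its 2 probe sets was -2.39. CBL, the gene of a ubiquitin ligase, and ERRFI1, the gene of a feedback inhibitor of the EGF receptor, were higher in REC-1 by 1.42 and 1.33 (limma adjusted p = 0.00243 and 0.00211). After CC-292 in REC-1, RASA2 was at 1.29, but on 1 of 2 probe sets only. SPRY4, a further Sprouty gene, differed by 0.27 in REC-1 and 0.70 in Z138 on its brightest probe set, with means of -0.09 and -0.08 over 3.

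Of a list of other dual-specificity and related phosphatases, 13 of 18 were kept. Of these, 3 passed the test of the line difference, beside 44.7% of all genes tested. In REC-1, 1 was higher and 2 were lower. The higher gene was DUSP16, a phosphatase gene of the JNK and p38 branch, by 0.99 (SE 0.22, limma adjusted p = 0.0155). DUSP16 was kept only through REC-1, so its p-value is no support for a difference. The lower genes were PTPN7, a lymphocyte phosphatase gene, at -0.74 (SE 0.16, limma adjusted p = 0.0133), and DUSP1, at -0.60 (SE 0.16, limma adjusted p = 0.0292). Of the 4 DUSP1 probe sets, 2 were below 0 on control arrays (mean -0.26, SD 0.54) and 3 on CC-292 arrays (mean -0.43, SD 0.43). DUSP23 was at 1.03 after CC-292 in Z138, above 0 on both probe sets, with its control value below the minimum.

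Of the other transcripts that ERK switches on, 21 of 25 were kept, with 5 higher in REC-1 and 7 lower, beside 44.7% of all genes tested. PHLDA1, among those higher, was kept only through REC-1, and EGR3, among those lower, only through Z138. Their p-values are no support for a difference. ETV1, a PEA3-group relative of ETV5, read 10.8 and 9.91 on the CC-292 and control arrays of REC-1, against 4.03 and 4.73 in Z138. All 8 probe sets had a control difference above 0 (5.19 on the brightest, mean 4.54), and the average was 5.96 (SE 0.37, limma adjusted p = 0.00022). ETV4, the remaining gene of that group, lay near the minimum in both lines, at 4.35 and 4.93 in REC-1 and 4.58 and 4.88 in Z138. EGR1, an immediate-early gene of ERK, was lower in REC-1, at 5.94 and 6.60 on the CC-292 and control arrays, against 7.60 and 7.82 in Z138 (average -1.44, SE 0.18, limma adjusted p = 0.00237). ELK3, an ETS factor gene, was also lower in REC-1, at 5.80 and 5.00, against 8.99 and 8.79 in Z138 (average -3.49, SE 0.20, limma adjusted p = 0.000173). The ELK3 control difference was -3.79 on the brightest of 2 probe sets, with a mean of -2.04 (SD 2.47). After CC-292 in REC-1, ETV1 was at 0.86 (above 0 on 6 of 8 probe sets) and EGR1 at -0.66 (below 0 on 6 of 6, mean -0.64). ELK3 was at 0.80 there, but on 1 of 2 probe sets, with a mean of 0.11. EPHA2 was at -1.22 in REC-1 (below 0 on 2 of 2, mean -0.67, SD 0.77). It read 4.02 after CC-292 and 5.23 in the control, and was kept only through that control array, so the size carries little meaning. In Z138, NR4A1 was at -0.68 (below 0 on 5 of 7). FOSB was at -0.96 on 1 of 2 probe sets (mean -0.31) and ETV1 at -0.69 on 3 of 8 (mean 0.06), which do not carry a direction. EGR1, EGR3, PHLDA1, DUSP1 and ETV4 are outside the rule for named genes and were chosen after their values were seen.

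**Figure D4:**
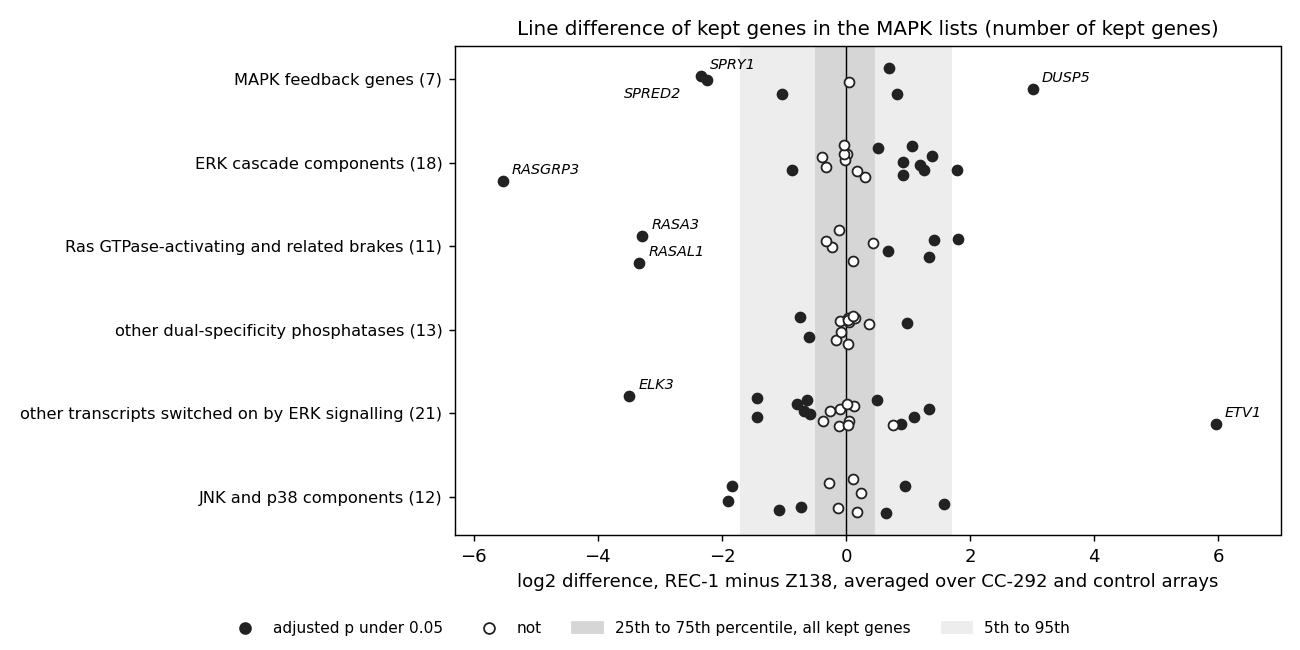
Log2 difference REC-1 minus Z138, averaged over CC-292 and control arrays by limma, for the kept genes of 6 MAPK lists (rows, number of kept genes in brackets). Filled points have an adjusted p under 0.05, and shading marks the 25th to 75th and the 5th to 95th percentiles of all 10823 kept genes. Among the members DUSP5, SPRY1 and SPRED2 lie outside the wider band. All 13 genes of the row of other dual-specificity phosphatases, which includes related phosphatases such as PTPN7, lie inside it.

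By closeness of pattern, taken as the Euclidean distance between values centred on each gene's mean over the 4 arrays, the genes nearest to DUSP5 were CLEC17A (0.12) and JAKMIP2 (0.12). Nearest to SPRED2 were RXRA (0.21) and HTATIP2 (0.23), and nearest to SPRY1 were BLVRB (0.09) and LPIN1 (0.16). These are descriptions over 4 arrays: 122 genes lay within 0.5 of SPRY1, 48 of DUSP5 and 33 of SPRED2.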

How the data were processed

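Expression was measured on 4 arrays with no replicates. Per the submitters' processing notes, the authors used RMA and Affymetrix Expression Console 1.1; its settings and the genome build were not given in the sources used here. The deposited table holds log2 signals, a scale inferred from their range (2.18 to 14.26). If arrays were quantile-normalized, a shift of most genes one way would not show.

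Of 49386 probe sets, those with 1 symbol in the platform annotation were used. All 27 member probe sets matched GRCh38.p14 RefSeq by Entrez identifier, with no symbol changed. Arrays were grouped by title. Within-line and between-line differences have no test. The average CC-292 difference (line as a block) and the average line difference (treatment as a block) came from 1 additive limma 3.58.1 fit in R 4.3.3 (lmFit, eBayes, prior 4.51 degrees of freedom) over 10823 genes, with Benjamini-Hochberg adjustment. The fit was tested on simulated data. Python 3.11.15, pandas 2.3.3, numpy 2.4.6 and matplotlib 3.10.9 were used. Depth has no counterpart on arrays; their number limits precision.

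Named were all members, up to 3 kept genes per list and comparison with the largest difference of at least 1.5-fold, of which part is given, and the 2 genes nearest to the 3 members of widest range. The members and lists were chosen with earlier results of these data known. Alternatives were other normalizations (median centring, quantile, cyclic loess), no brightness filter or the 70th percentile (6.61), means or median differences over probe sets, other fold thresholds, an intensity trend and no block.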

Additional observations from a re-analysis of the deposited data

Results flagged for a closer look

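For 3 kept members the CC-292 difference had opposite signs in REC-1 and Z138, on the brightest probe set. With 1 array per group the difference between the responses was not tested. For SPRY1 the REC-1 response minus the Z138 response was 0.44 (0.09 in REC-1 and -0.35 in Z138), and it was above 0 on all 3 probe sets (0.37 to 0.50). For SPRED1 it was -0.28 (-0.12 in REC-1 and 0.16 in Z138), with probe sets from -0.77 to 0.30. For DUSP10 it was -0.25 (-0.24 in REC-1 and 0.01 in Z138, where it was level). The other 3 DUSP10 probe sets went against this and were above 0, up to 1.12, and the mean over all 4 was 0.40. Over all genes with several kept probe sets, the REC-1 response minus the Z138 response had a pooled SD of 0.40 between probe sets.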

How the results depend on the processing

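Of 44 recounts of members under alternatives, 35 stayed within 1.5 times the value reported. The brightness minimum at the 70th percentile leaves 3 members (DUSP2, DUSP5 and SPRY1). With it the count at least 1.5-fold different after CC-292 was 0 in REC-1. The count at least 2-fold different between controls was 2, and the share of all genes was not recounted for it. The count passing the line difference was 3, beside 4322 of all 7707 genes tested at that minimum, so it is not particular to the members. After CC-292 in REC-1 the count was 0 when probe sets were averaged and 0 when the median difference was taken, since both lose SPRED2, and a 2-fold threshold gave 0 in REC-1 and 0 in Z138. With the mean of probe sets, 3 averages that had not passed the test changed sign: SPRY1 after CC-292 (0.105), SPRED1 after CC-292 (-0.062) and SPRED1 between lines (-0.312). Differences under the fold threshold turned too with that mean, among them DUSP10 after CC-292 in REC-1 (0.037) and Z138 (-0.359), and SPRED1 between controls (-0.236). With the median difference, SPRED2 after CC-292 in Z138 turned (0.071), and its control difference between lines shrank from -1.998 to -0.633. No called difference of a kept member changed sign. The calls of the line difference held under the normalizations, the intensity trend and the fit without a block. Setting values below the brightness minimum to it, chosen after seeing the data, gave 0 members after CC-292 in REC-1 and 0 in Z138. The average CC-292 difference pairs the arrays by line, and without that block 0 members passed, as with it. The labels give no replicate numbers, and with 1 array per group no replicate could be left out.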

Other observations

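Among JNK and p38 components, which DUSP10 acts on, 12 of 17 genes were kept. In the average line difference, 3 were higher in REC-1 and 4 lower at a limma adjusted p under 0.05, beside 44.7% of all genes tested. MAP2K6 and MAPK12, genes of the p38 branch, were lower in REC-1, with average REC-1 minus Z138 differences of -1.90 (SE 0.17, limma adjusted p = 0.000803) and -1.83 (SE 0.16, limma adjusted p = 0.00074). Their control differences were -2.07 and -1.93 on the brightest probe set. The means over 2 probe sets were -1.08 (SD 1.40) and -1.21 (SD 1.01), so the sizes depend on the probe set. JUN, the AP-1 gene that JNK activates, was higher in REC-1, at 4.81 and 5.54 on the CC-292 and control arrays, against 3.16 and 4.03 in Z138 (average 1.58, SE 0.16, limma adjusted p = 0.00112). JUN was kept only through REC-1, so its p-value is no support for a difference. With Z138 set to the brightness minimum, REC-1 was at least 1.13-fold higher on CC-292 arrays and at least 1.87-fold higher on control arrays. After CC-292 JUN differed by -0.72 in REC-1, below 0 on 4 of 4 probe sets, and by -0.87 in Z138, below 0 on 2 of 4 with a mean of -0.04. Both Z138 values lay below the brightness minimum.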
